A study of Mus musculus with 4 samples.

Results

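Described here are 10 genes: 9 genes of the endothelial cells that line the islet capillaries (Pecam1, Cdh5, Kdr, Flt1, Tek, Tie1, Plvap, Esam and Eng) and Vegfa, the growth factor gene through which islet cells act on those capillaries. They were taken by symbol from a list and make up 10 of the 23235 gene symbols measured. Each had 1 row with status OK in every library. The RNA of isolated pancreatic islets was sequenced from wild-type (WT) and KR mutant mice, both C57BL/6. In KR mice, as known from the study, arginines stand in for the lysines at which the transcription factor FoxO1 is acetylated, and the question of the series is what deacetylated FoxO1 does for beta cell metabolism and insulin release. Each genotype was studied after a fast, of 48 h in the sample titles but 24 h in the extraction protocol, and after a fast with 6 h of refeeding. Each of these 4 groups has 1 library, made from the pooled islets of 3 mice per genotype. The labels give no age or sex. With a single library in every group, no pair of libraries can be checked against replicates.

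Islets are among the most richly vascularised tissues of the body, and their capillaries are fenestrated, which lets hormones pass into the blood. Beta cells secrete vascular endothelial growth factor A (VEGF-A, from Vegfa), which binds the receptors VEGFR2 (Kdr) and VEGFR1 (Flt1) on neighbouring endothelial cells and keeps the capillaries dense and fenestrated. VEGFR2 carries most of the signal, and VEGFR1 binds the ligand tightly and limits it. Tek encodes TIE2, the receptor of the angiopoietins, Tie1 its partner receptor, and Eng endoglin, a co-receptor for ligands of the TGF-beta family. Cdh5 (VE-cadherin), Pecam1 (CD31) and Esam encode adhesion molecules of endothelial cell contacts, and Plvap the protein of the diaphragms that span fenestrae.

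The promoters of the 2 VEGF receptor genes, of Tie1 and of the ligand gene are shown. Their transcripts were all lower in refed than in fasted islets, but so were those of Eng and Tek, whose windows are not printed. For Flt1, Tie1 and Tek this difference was not tested, because of their low level. RefSeq windows (GRCm38.p6, a later build than the mm9 of the expression files) were matched for 6 of the 10 genes: Kdr, Flt1, Tie1, Tek, Eng and Vegfa. Pecam1, Cdh5, Plvap and Esam had no entry. The 250 bases before the start are printed 5′ to 3′ on the gene's strand for Kdr (chr5:75978456-75978705, minus strand), Flt1 (chr5:147726012-147726261, minus strand), Tie1 (chr4:118489850-118490099, minus strand) and the upstream start of Vegfa (chr17:46032378-46032627, minus strand). Capitals mark GGAA, the core that ETS factors of endothelial cells bind, or its complement TTCC.
Kdr: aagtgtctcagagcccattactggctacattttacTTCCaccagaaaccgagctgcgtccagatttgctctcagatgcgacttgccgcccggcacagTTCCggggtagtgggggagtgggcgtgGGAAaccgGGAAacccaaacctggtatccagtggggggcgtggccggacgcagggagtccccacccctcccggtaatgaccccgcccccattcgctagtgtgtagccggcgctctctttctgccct
Flt1: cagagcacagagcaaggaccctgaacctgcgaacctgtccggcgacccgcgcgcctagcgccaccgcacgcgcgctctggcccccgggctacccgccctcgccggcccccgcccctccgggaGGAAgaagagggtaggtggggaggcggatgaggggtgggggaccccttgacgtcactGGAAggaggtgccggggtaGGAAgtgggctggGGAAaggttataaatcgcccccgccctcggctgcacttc
Tie1: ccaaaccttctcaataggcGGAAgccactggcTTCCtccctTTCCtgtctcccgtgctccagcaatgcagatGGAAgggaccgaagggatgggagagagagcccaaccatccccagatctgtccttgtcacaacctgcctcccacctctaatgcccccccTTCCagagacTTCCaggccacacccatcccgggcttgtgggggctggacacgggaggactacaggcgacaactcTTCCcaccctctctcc
Vegfa: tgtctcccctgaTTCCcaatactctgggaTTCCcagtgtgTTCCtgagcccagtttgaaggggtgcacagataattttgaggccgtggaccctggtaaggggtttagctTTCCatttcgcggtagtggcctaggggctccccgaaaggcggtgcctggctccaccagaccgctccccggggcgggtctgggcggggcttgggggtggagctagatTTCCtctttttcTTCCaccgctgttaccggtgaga
The core occurred 4 times before Kdr, 4 times before Flt1, 7 times before Tie1 and 6 times before Vegfa, counted on both strands. In the matched windows not printed it occurred 3 times for Eng, 2 times for Tek and 2 times for another listed start of Vegfa. It is a common word: 93.4% of all 32851 windows of this length hold it, with a median count of 3, and 18.0% hold at least 5. ACGTG, 1 form of the core of the hypoxia response element (complement CACGT), was in none of the 4 stretches printed, and is in 16.6% of all windows. The other form, GCGTG, was not searched, and the printed Kdr stretch holds it. Bases further upstream were not searched either, so absence of the element is not shown. It occurred 1 time in the other Vegfa window (chr17:46025114-46025413, minus strand). That window did not match the start of any GENCODE transcript of Vegfa, so it may not be a promoter. The E-box CACGTG, which contains ACGTG, was in none of the 4 stretches and is in 6.02% of all windows. TATAAA (complement TTTATA) was found before Flt1, and 12.4% of all windows hold it. GGGCGG (complement CCGCCC) occurred 3 times before Flt1, 2 times before Kdr and 2 times before Vegfa, against 32.7% of all windows with at least 1. These are matches of letters only.

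Values are FPKM, fragments per kilobase of transcript per library total, with the lower and upper bound that the authors deposited, and FPKM may be compared between genes because it is per length. The bounds imply about 26407138 fragments for the fasted WT library. Against it, the depth estimated from 7982 well-covered genes was 1.01 for the fasted KR library and 0.683 and 0.418 for the WT and KR libraries of the refed state. The endothelial genes rest on few fragments: 26.0 to 381 each in fasted WT and 7 to 168 in refed KR, against 14024 and 4908 for Vegfa. Intervals given below cover this counting error only.

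Vegfa was the most abundant of the 10 in every library, and the endothelial genes were low. In fasted WT islets its FPKM of 183 lay above 96.7% of the 11953 tested genes, and in refed WT islets its FPKM of 126 lay above 93.7%. By mean FPKM over the 4 libraries the order was Vegfa (165), Esam (8.80), Plvap (2.96), Eng (2.57), Pecam1 (2.55), Kdr (1.57), Cdh5 (1.51), Flt1 (0.897), Tie1 (0.554) and Tek (0.172). Vegfa and Esam held the first 2 places, and Flt1, Tie1 and Tek the last 3, in each of the 4 libraries. Plvap, Eng and Pecam1 are neighbours whose order changed: Pecam1 was the lowest of them in both fasted libraries and the highest in both refed libraries. Kdr and Cdh5 had overlapping bounds in every library. The defining endothelial markers were therefore present, at a median FPKM over the 9 genes of 2.82 fasted and 1.12 refed in WT islets and of 1.78 fasted and 0.856 refed in KR islets.

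**Figure D1:**
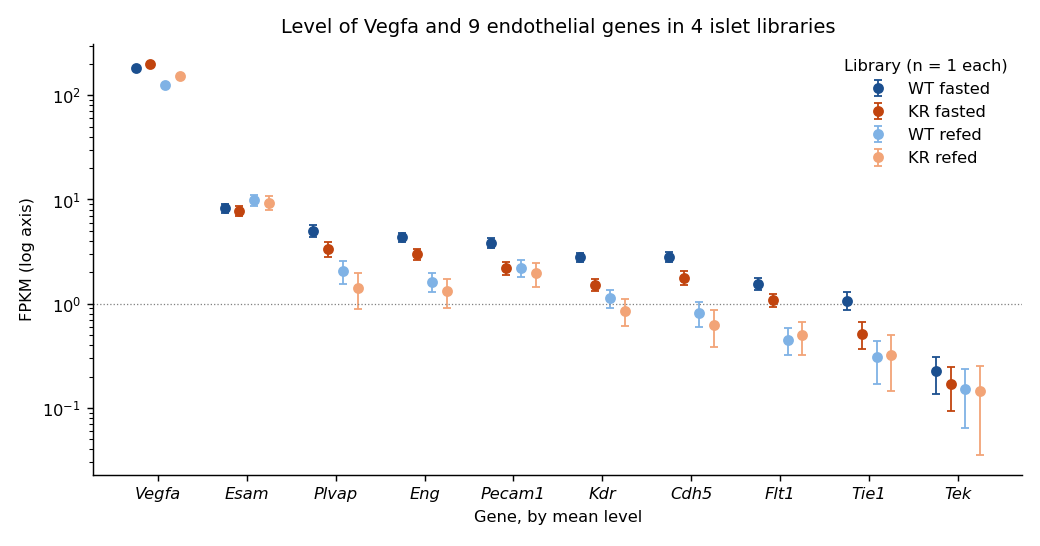
FPKM on a log axis of Vegfa and the 9 endothelial genes in the 4 libraries (1 pooled library each, points), with the deposited lower and upper bounds as bars and a dotted line at an FPKM of 1. Vegfa stands between 126 and 198, every endothelial gene below 10, and the endothelial genes other than Esam are highest in the fasted WT library.

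Refed islets were set against fasted ones to see which transcripts follow feeding. The junction gene Cdh5, the fenestral diaphragm gene Plvap, the co-receptor gene Eng and the VEGF receptor gene Kdr fell in refed islets, with log2 differences between -0.64 and -0.92, and the ligand gene Vegfa fell by 0.45. Of the other junction genes Esam rose by 0.24 and Pecam1 did not pass. Of the 9 endothelial genes, 8 were lower in the refed library in WT and 8 in KR, against 49.4% and 52.2% of all tested genes, and their median log2 difference was -0.82 in WT and -0.44 in KR, against 0.0042 and -0.02 for all tested genes. Here and below, the 9 include Flt1, Tie1 and Tek, which were too low to test, whereas the shares cover tested genes only. Since each library is RNA of whole islets, fewer endothelial cells in a pool and less RNA per endothelial cell cannot be told apart.

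The test was limma's additive model of feeding state and genotype on log2(FPKM + 1), over all 11953 genes whose mean FPKM reached 1, with Benjamini-Hochberg adjustment and a threshold of 0.05. In it 6 of the 9 endothelial genes and Vegfa were tested, and Flt1, Tie1 and Tek were too low. Of the 6, 4 fell, 1 rose and 1 did not pass. Feeding moved much of the transcriptome, since 29.2% of all tested genes fell and 27.7% rose, so the counts are to be read beside those shares. Cdh5 met the minimum only through its fasted libraries. Kdr, at 1.12 in refed WT and 0.856 in refed KR, also needed its fasted libraries to reach the minimum mean. With no filter on low values, the same test called none of the 10 genes, 5 of which had an unadjusted p under 0.05, and 0 of all 23046 genes, 6207 of which had one.

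Kdr, on chromosome 5 at 76329299 to 76374453 (mm9), was measured in WT islets at an FPKM of 2.78 fasted and 1.12 refed, and in KR islets at 1.52 fasted and 0.856 refed. Both refed libraries lay below both fasted ones. Kdr fell by 0.64 ± 0.15 (SE, 4 libraries; limma adjusted p = 0.00673), and the fasted level was 2.48 times the refed level in WT (95% counting interval 2.00 to 3.07) and 1.78 times in KR (1.30 to 2.43). Flt1, on chromosome 5 at 148373772 to 148537564, was at 1.56 FPKM fasted and 0.452 refed in WT and at 1.08 fasted and 0.497 refed in KR. It was not tested because of its low level. The fasted levels did not overlap the refed ones and were 3.44 times as high in WT (2.53 to 4.68) and 2.18 times in KR (1.5 to 3.16), so the 2 VEGF receptor genes had the same order of feeding states. With no filter the adjusted p of Flt1 was 0.199.

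Eng, on chromosome 2 at 32502115 to 32538189, changed in WT from 4.36 FPKM fasted to 1.62 refed and in KR from 3.00 to 1.31, and fell by 0.91 ± 0.12 (limma adjusted p = 0.00038). The 2 feeding states did not overlap. The locus of Eng overlaps that of Fpgs in the files, so its value carries that uncertainty. Tie1, on chromosome 4 at 118143796 to 118162454, was highest in the fasted WT library, at 1.07 FPKM, followed by 0.515 in the fasted KR library, with 0.305 and 0.324 in the refed libraries of WT and KR. Its fasted level was 3.52 times the refed one in WT (2.18 to 5.68) and 1.59 times in KR, where the counting interval of 0.864 to 2.93 includes 1. Tek, on chromosome 4 at 94405991 to 94541630, was near the limit of detection, at 0.224 FPKM fasted and 0.151 refed in WT and 0.170 fasted and 0.144 refed in KR, and these values rest on 26, 12, 20 and 7 fragments. No difference in Tek was detectable at this depth.

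Cdh5, on chromosome 8 at 106625525 to 106668402, stood in WT at 2.82 FPKM fasted and 0.816 refed, and in KR at 1.78 fasted and 0.630 refed. It spanned the widest range of the 10 genes, 4.48-fold between fasted WT and refed KR, and fell by 0.92 ± 0.15 (limma adjusted p = 0.000888). Plvap, on chromosome 8 at 74021652 to 74035668, had 5.02 FPKM fasted and 2.05 refed in WT, beside 3.35 fasted and 1.42 refed in KR. Here too every fasted value lay above every refed one, and Plvap fell by 0.91 ± 0.11 (limma adjusted p = 0.000239).

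Pecam1, on chromosome 11 at 106515532 to 106576595, was at 3.83 FPKM in the fasted WT library, 2.20 in both the fasted KR and the refed WT library, and 1.96 in the refed KR library. The fasted WT library alone stood apart, and fasted KR was level with refed WT. The difference of -0.35 ± 0.14 did not pass (limma adjusted p = 0.06), with log2 differences of -0.59 in WT and -0.11 in KR. Over the 6 alternatives that could test it the adjusted p ran from 0.00138 with limma-voom, the only one under the threshold, to 0.499 with no filter.

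Esam, on chromosome 9 at 37335674 to 37345904, was at 8.26 FPKM fasted and 9.84 refed in WT and at 7.75 fasted and 9.35 refed in KR. Both refed values lay above both fasted ones, by 1.19 times in WT (1.02 to 1.39) and 1.21 times in KR (1.002 to 1.45). Esam rose by 0.24 ± 0.08 (limma adjusted p = 0.03), a call lost with limma-voom (0.0643) and with no filter (0.145). Esam made up 27.6% of the summed FPKM of the 9 genes in the fasted and 53.0% in the refed WT library, and 36.3% and 56.7% in the KR libraries. The sum of the other 8 was 21.7 fasted and 8.72 refed in WT and 13.6 fasted and 7.14 refed in KR.

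Vegfa, on chromosome 17 at 46153943 to 46169326, was measured in WT at 183 FPKM fasted, with bounds of 180 to 186, and at 126 refed, with bounds of 123 to 129. In KR it was at 198 fasted (195 to 202) and 154 refed (149 to 158). The bounds of the 4 libraries did not overlap, and both refed values lay below both fasted ones. Vegfa fell by 0.45 ± 0.06 (limma adjusted p = 0.000361) and passed in 6 of 7 alternatives, the exception being no filter (0.16). The transcripts of the ligand and of its receptors were all lower in refed islets, but not in proportion: Vegfa stood at 42.1 times the summed FPKM of Kdr and Flt1 in the fasted and 79.9 times in the refed WT library, and at 76.1 and 114 times in the KR libraries.

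**Figure D2:**
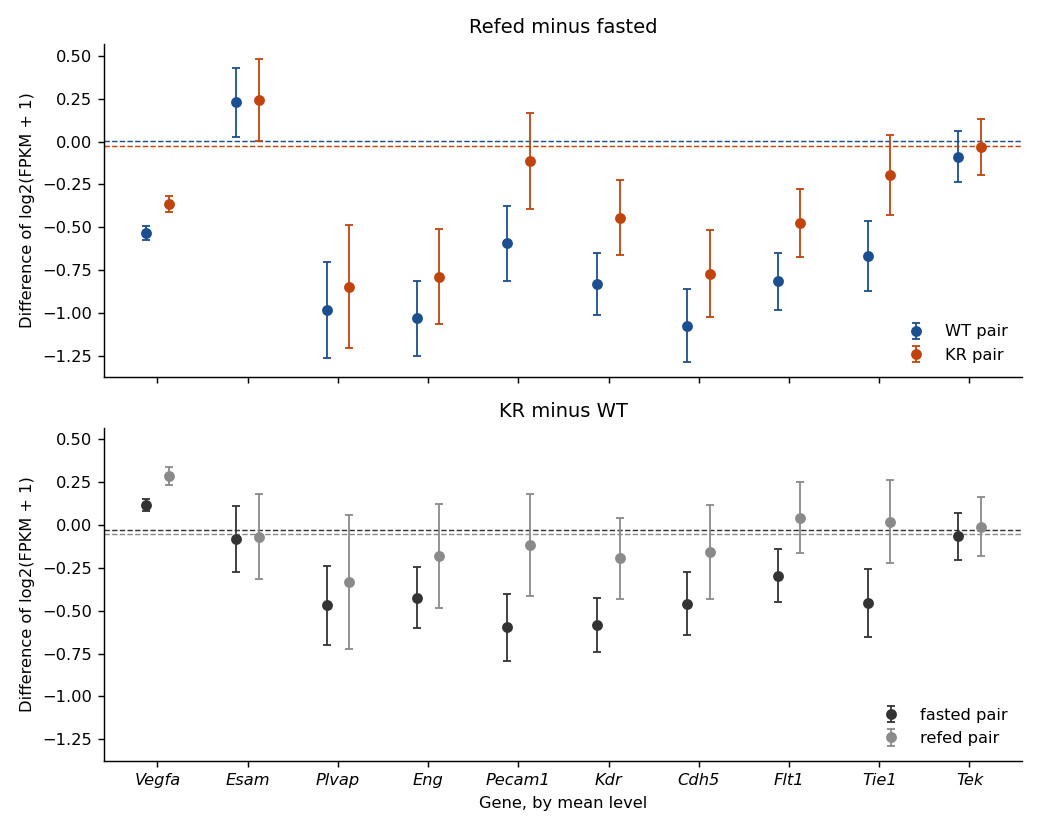
Difference in log2(FPKM + 1) between 2 libraries for each gene, refed minus fasted in WT and in KR (upper panel) and KR minus WT in fasted and in refed islets (lower panel), with 95% counting intervals as bars and the median of all tested genes as dashed lines. In the upper panel 8 of the 9 endothelial genes and Vegfa lie below 0 in both genotypes, and in the lower panel Vegfa lies above 0 and the endothelial genes at or below 0 in the fasted pair.

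Counted on the log2(FPKM + 1) scale, which gives smaller folds for low genes than the FPKM ratios above, 7 of the 9 endothelial genes were at least 1.5-fold lower in the refed than in the fasted WT library, against 9.22% of all tested genes, and 2 of them, Cdh5 and Eng, at least 2-fold, against 2.4%. In KR 3 were at least 1.5-fold lower on that scale, Plvap, Eng and Cdh5, against 8.23%. By the FPKM ratio 7 in WT and 5 in KR were lower beyond counting error, against 35.6% and 34.7% of all tested genes, and Esam was higher beyond it in both, against 35.6% and 29.6%. On the log2(FPKM + 1) scale 0 of the 9 were at least 2-fold lower in KR, against 1.75%.

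KR islets were set against WT islets to see which transcripts follow the FoxO1 mutation. The endothelial genes were lower in fasted KR than in fasted WT islets, all 9 of them, whereas Vegfa was higher, and in refed islets 7 of the 9 were lower by less. None of these differences passed the test on the effect shared by both feeding states. The shares of all tested genes that were lower were 59.7% in fasted and 63.9% in refed islets. The median log2 difference of the 9 genes was -0.45 between the fasted libraries and -0.12 between the refed ones, against -0.03 and -0.05 for all tested genes.

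limma called 0 of the 7 genes tested between genotypes, against 0.661% of all tested genes lower and 0.602% higher in KR. At an unadjusted p under 0.05 there were 4 endothelial genes lower, against 11.7% of all tested genes, and Vegfa higher, against 4.62%. The fitted differences were -0.40 ± 0.11 for Plvap (adjusted p = 0.152), -0.39 ± 0.15 for Kdr (0.251), -0.36 ± 0.14 for Pecam1 (0.262), -0.31 ± 0.15 for Cdh5 (0.35), -0.30 ± 0.12 for Eng (0.274) and -0.07 ± 0.08 for Esam (0.706). For Vegfa the fitted difference was 0.20 ± 0.06 (adjusted p = 0.167), higher in KR in both pairs. limma-voom, which weights each value by its number of fragments, called 5 of the 7: Pecam1, Cdh5, Kdr and Eng lower, against 3.5% of all tested genes, and Vegfa higher, against 2.77%. The limma-voom p-values rest almost wholly on the spread shared by all genes and hardly on each gene's own. For Kdr that fit gave -0.75 ± 0.16 (limma-voom unadjusted p = 2.38e-06). Whether these genes differ by genotype thus depends on the model.

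Single values show where the genotypes were apart. In fasted islets the WT level was 2.08 times the KR level for Tie1 (95% counting interval 1.49 to 2.92), 1.83 times for Kdr (1.54 to 2.16), 1.74 times for Pecam1 (1.45 to 2.10), 1.58 times for Cdh5 (1.31 to 1.91), 1.5 times for Plvap (1.23 to 1.83), 1.45 times for Eng (1.24 to 1.71) and 1.44 times for Flt1 (1.18 to 1.74). For Esam (1.06, 0.917 to 1.24) and Tek (1.31, 0.734 to 2.35) the interval includes 1. Thus 7 of the 9 were lower in KR beyond counting error, against 25.0% of all tested genes, while Pecam1 alone was at least 1.5-fold lower on the log2(FPKM + 1) scale, against 0.485%. In refed islets 0 of the 9 differed beyond counting error, against 22.1% lower and 7.39% higher among all tested genes, and 0 were at least 1.5-fold lower on the log2(FPKM + 1) scale, against 0.686%. The widest ratio was that of Plvap, with WT at 1.44 times KR (0.927 to 2.24). The refed KR library is the shallowest, and a ratio of 1.5 lies within the refed intervals of Plvap, Eng, Cdh5, Kdr, Pecam1, Tie1 and Tek. Vegfa was 1.09 times as high in KR as in WT in fasted (1.06 to 1.11), beyond counting error as were 12.7% of all tested genes upward, and 1.22 times in refed islets (1.18 to 1.27).

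**Figure D3:**
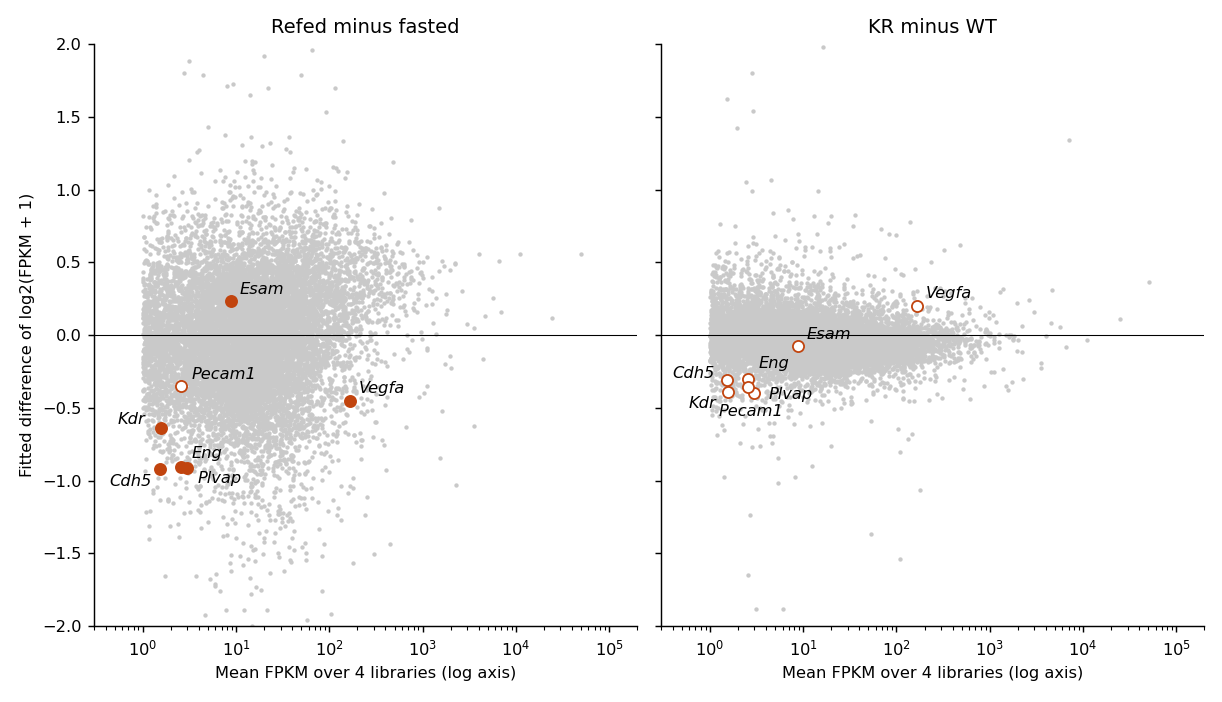
Fitted difference of log2(FPKM + 1) against mean FPKM (log axis) for the 11953 tested genes (grey), refed minus fasted on the left and KR minus WT on the right, with the 7 tested genes in red, filled where the adjusted p is under 0.05. The vertical axis ends at -2 and 2, which leaves out 41 genes on the left and 19 on the right. Cdh5, Plvap, Eng, Kdr, Vegfa and Esam are filled on the left and none is on the right.

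The fasted WT library enters both the feeding comparison in WT and the genotype comparison in fasted islets, so the 2 share that library's values. It held the highest level of 8 of the 9 endothelial genes. The feeding difference in KR does not use it, and there the log2 differences were -0.85 for Plvap, -0.79 for Eng, -0.77 for Cdh5, -0.48 for Flt1, -0.44 for Kdr, -0.19 for Tie1, -0.11 for Pecam1, -0.03 for Tek and 0.24 for Esam. The feeding difference was larger in WT than in KR for each of the 8 genes that were lower, by 0.48 for Pecam1 (95% counting interval 0.12 to 0.84), 0.39 for Kdr (0.10 to 0.67), 0.24 for Eng (-0.11 to 0.59) and 0.13 for Plvap (-0.32 to 0.59). For Vegfa it was larger in WT by 0.17 (0.11 to 0.23). Without replicate libraries this difference between genotypes has no test.

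Some further endothelial genes were also lower in refed islets. Of 30 listed, 29 were measured and 10 tested, and 5 fell with refeeding, 0 rose and 5 did not pass. Esm1, which encodes endocan, a secreted product of VEGF-stimulated endothelium, fell by 0.82 ± 0.12 (limma adjusted p = 0.000534), from 8.56 FPKM fasted to 3.64 refed in WT and from 5.83 to 3.53 in KR. Rasip1, a regulator of vessel lumens, fell by 0.73, Cd93 by 0.50, the sialomucin gene Emcn by 0.43 and the sphingosine-1-phosphate receptor gene S1pr1 by 0.41. In each of these 5 both fasted libraries lay above both refed ones. Ramp2, a subunit of the adrenomedullin receptor, went from 9.82 FPKM fasted to 11.4 refed in WT and from 8.69 to 8.43 in KR, with a feeding difference of 0.08 ± 0.09 that did not pass. Over all 29, 24 were lower in refed islets in WT and 24 in KR, against 49.4% and 52.2% of all tested genes. The 29 include genes too low to test, which those shares leave out, so the sets are not alike. In KR 25 were lower in fasted and 22 in refed islets, against 59.7% and 63.9%. No gene of the list passed between genotypes in limma, where 3 were lower at an unadjusted p under 0.05, and limma-voom called Cd34 and Cd93 lower. Counts here and in the lists below are to be read beside the shares of all tested genes. Of those, 29.2% fell and 27.7% rose with refeeding in limma. In KR 11.7% were lower and 4.62% higher at an unadjusted limma p under 0.05, and limma-voom called 3.5% lower and 2.77% higher.

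Among the VEGF and angiopoietin ligands and co-receptors, 17 genes of which 11 were tested, 5 fell with refeeding, 1 rose and 5 did not pass. Vegfb, whose product binds VEGFR1 but not VEGFR2, fell by 0.87 ± 0.07 (limma adjusted p = 3.69e-05). Its FPKM was 81.0 fasted and 48.2 refed in WT and 77.2 fasted and 38.2 refed in KR. Pgf, which encodes placental growth factor, another ligand of VEGFR1, rose by 0.62 ± 0.09 (limma adjusted p = 0.000435). Its FPKM was 5.09 fasted and 9.02 refed in WT islets, beside 7.68 fasted and 11.4 refed in KR islets. The 3 VEGFR1 ligand genes Vegfa, Vegfb and Pgf therefore did not move in 1 direction. Apln, which encodes the peptide apelin, fell by 0.66, the Notch ligand gene Jag1 by 0.63, the antiangiogenic thrombospondin gene Thbs1 by 0.63 and Angptl2 by 0.45. Apln and Jag1 lay under an FPKM of 1 in both refed libraries and met the minimum, as Cdh5 did, only through the fasted ones. Of the angiopoietins that bind TIE2, Angpt2 had an FPKM of 3.19 to 3.61 and a feeding difference of 0.02 ± 0.11, and Angpt1 lay at 0.0435 or less in each library. The co-receptor genes Nrp1 and Nrp2 had feeding differences of -0.22 and -0.30 that did not pass. Between genotypes limma called 0 of the 11, with 1 higher and 1 lower at an unadjusted p under 0.05, and limma-voom called 1 higher and 1 lower. Pgf had the largest genotype difference of the list, 0.41 ± 0.09 (limma adjusted p = 0.0687).

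Vegfa is a known target of the hypoxia-inducible factors, and 24 hypoxia response genes were listed, of which 20 were tested. With refeeding 8 fell, 3 rose and 9 did not pass. The factor genes Epas1, by 0.59, Arnt, by 0.23, and Hif1a, by 0.20, fell. Egln1, a prolyl hydroxylase that marks the products of Epas1 and Hif1a for degradation, fell by 0.54, and the glucose transporter gene Slc2a1 by 0.93 ± 0.14 (limma adjusted p = 0.000622). Epas1 encodes HIF-2alpha, which endothelial cells express strongly, and its FPKM was 2.80 fasted and 1.28 refed in WT and 2.38 fasted and 1.49 refed in KR. Ankrd37, by 0.40, Pgk1, by 0.24, and the mitophagy gene Bnip3, by 0.22, all targets of these factors, rose. Without the mean-variance trend the calls of Hif1a, Ankrd37 and Bnip3 were lost. Genes that these factors are known to induce were thus found among those that fell with Vegfa, such as Slc2a1 and Egln1, and among those that rose. Ldha, Pdk1, Kdm3a and Ndrg1 had fitted values of -0.05, 0.09, 0.16 and -0.01, and none of these passed. Between genotypes limma called 0 of the 20, with 4 lower at an unadjusted p under 0.05, and limma-voom called 3 lower.

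Capillary endothelium takes up fatty acids, and 8 genes linked to that function were listed, of which 6 were tested. The mean FPKM of Lpl (156), Cd36 (21.8) and Fabp5 (18.4) lay above that of each of the 9 endothelial genes. Which cells of the pools these transcripts came from was not tested. Fabp4, a fatty acid binding protein gene of capillary endothelium and adipocytes, was lower in KR by 1.24 ± 0.12 on the log2 scale (limma adjusted p = 0.00287) and fell with refeeding by 0.47 ± 0.12, a call lost with limma-voom. The WT libraries held 5.06 FPKM fasted and 3.38 refed, and the KR libraries 1.58 and 0.850. Lpl, the lipoprotein lipase gene, was lower in KR by 0.37 ± 0.05 (limma adjusted p = 0.0186), at 132 against 173 FPKM in fasted islets and 140 against 178 in refed islets, a call lost without trend. Aqp7, a glycerol channel gene, rose with refeeding by 0.81, but met the minimum only through its refed libraries, both fasted values being under 1. Gpihbp1, which encodes the endothelial anchor of lipoprotein lipase, and the fatty acid transporter gene Cd36 had genotype differences of -0.30 ± 0.17 and -0.36 ± 0.09 that did not pass in limma. At an unadjusted p under 0.05 limma had 4 of the 6 lower in KR, and limma-voom called 3 lower, Cd36, Fabp4 and Lpl. The 5 adipocyte markers Adipoq, Plin1, Cfd, Retn and Lep were listed at 0 in all 4 libraries.

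Markers of the other cells in the islet pools moved with feeding and genotype too. The summed FPKM of the 9 endothelial genes was 0.714 times the fasted WT level in the fasted KR library, and 0.620 and 0.551 times in the refed WT and KR libraries. For 9 beta cell genes the same sums were 1.36, 1.42 and 1.99 in that order, and 6 of the 9 rose with refeeding and 6 were higher in KR, none of the latter in limma without trend. For 6 fibroblast genes they were 1.05, 0.524 and 0.610. Fibroblast collagens fell with refeeding, Col1a1 by 1.15 ± 0.12 (limma adjusted p = 7.91e-05), and all 4 tested genes of that list fell while 0 differed by genotype in limma, 1 being higher at an unadjusted p under 0.05 and by limma-voom. Their part in the endothelial result was not tested. Such sums weigh the most abundant genes most. Iapp alone held 35463 of the 40795 FPKM of the beta cell list in the fasted WT library. Esam, which rose with refeeding, made up 27.6% of the endothelial sum in that library and 56.7% in the refed KR library. The other 8 endothelial genes summed to 21.7 FPKM fasted and 8.72 refed in WT, and to 13.6 and 7.14 in KR. Their sum thus fell further than that of the full list.

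**Figure D4:**
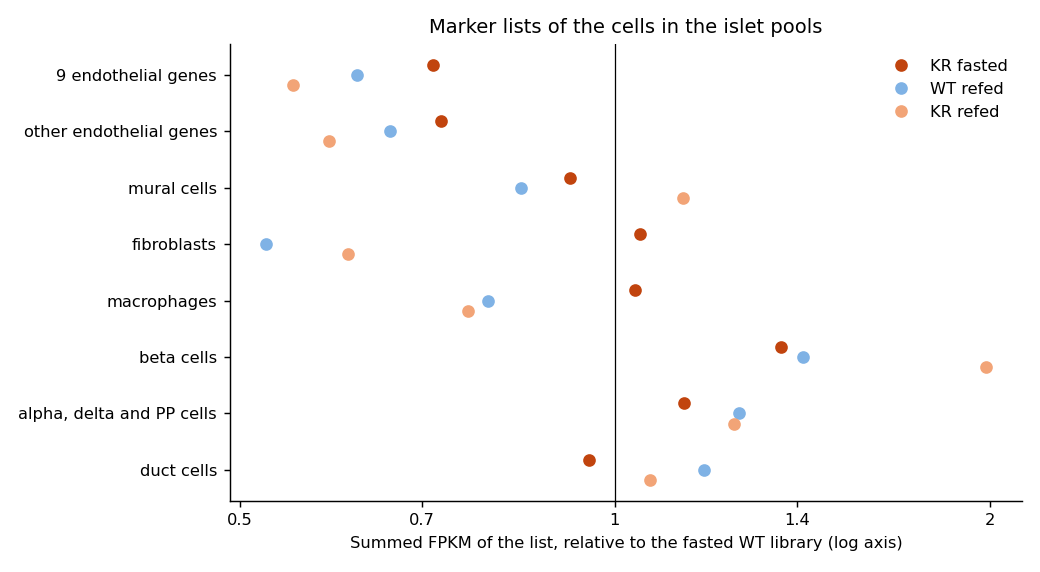
Summed FPKM of 8 marker lists in the fasted KR library and both refed libraries, relative to the fasted WT library (log axis, vertical line at 1, 1 library per point). The 2 endothelial lists lie between 0.551 and 0.725 in all 3 libraries, the beta cell list between 1.36 and 1.99, and the fibroblast list is below 1 in the refed libraries only. Iapp makes up most of the beta cell sum. The sum of the 9 endothelial genes includes Esam, the most abundant of them, which rose with refeeding.

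Of the mural cells that wrap the capillaries, 11 genes were listed and 6 tested. Pdgfrb, the pericyte receptor gene, fell by 0.74 ± 0.11 (limma adjusted p = 0.000654), and the contractile genes Acta2 and Tagln rose by 0.68 and 0.62. The summed level of that list was 0.920, 0.841 and 1.13 times that of fasted WT, in the same order of libraries, and 0 of its genes passed between genotypes in limma, with 1 higher at an unadjusted p under 0.05 and by limma-voom. Of 9 macrophage genes 8 were tested, and Cd68, Lyz2, Cd74 and H2-Ab1 fell with refeeding, at sums of 1.04, 0.790 and 0.762. Between genotypes Cd74, H2-Aa and H2-Ab1 were higher in KR except in limma without trend. Lyz2 (-0.22) and Cd68 (-0.19) were instead lower in KR at an unadjusted p under 0.05, and limma-voom called 4 macrophage genes higher and Lyz2 lower. Of 8 genes of alpha, delta and PP cells 2 rose, 2 fell and 0 passed between genotypes in limma, where 3 were higher at an unadjusted p under 0.05 and 3 by limma-voom. Their summed levels were 1.14, 1.26 and 1.25 times that of fasted WT. Of 4 tested duct genes Krt19 and Krt7 rose with refeeding, the latter not in limma without trend. Between genotypes 0 passed in limma, and Krt19 was lower in KR at an unadjusted p under 0.05 and by limma-voom. Krt19 had 1.32 FPKM fasted and 2.65 refed in WT and 0.683 and 1.02 in KR. It needed its refed libraries, and its WT libraries, to reach the minimum mean. Krt7 stood at 413 to 521 FPKM, whereas the untested duct genes Sox9, Cftr and Muc1 lay at 0.632 or less. The single tested acinar gene, Cela1, rose with refeeding by 0.47. It stood at 35.0 to 57.4 FPKM, apart from the other acinar genes listed, which lay at 1.63 or less in each library. Whether the share of duct or acinar cells differed was not tested. Of lymphatic endothelial markers Prox1, which islet endocrine cells also express, fell by 0.22, a call lost without trend and after rescaling. Lyve1, which macrophages share, had an FPKM of 2.47 to 5.35 and passed only with limma-voom, as higher in KR. Pdpn lay at 0.218 or less. The platelet and red cell markers were near 0, at a summed FPKM of 0.836 to 2.74, and the platelet gene Pf4, the 1 tested, passed in neither comparison. At an unadjusted p under 0.05 Pf4 was higher in KR, but it met the minimum only through its KR libraries, both WT values being under 1.

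The genes nearest in profile were sought among 9201 others whose mean FPKM reached 5, by the Euclidean distance of log2(FPKM + 1), centred on each gene's mean, over the 4 libraries. Nearest to the median profile of the 9 endothelial genes were Ciapin1 (distance 0.0743), Litaf (0.0754), Ccdc9 (0.0914), Jhdm1d (0.0945), Rdh10 (0.0984), AI316807 (0.105), Gyg (0.118) and Robo1 (0.119). Among the 9 themselves Tie1 (0.108) was nearest to that median and Esam (0.793) farthest from it. Ciapin1 had 18.1 FPKM fasted and 10.01 refed in WT and 12.9 fasted and 9.85 refed in KR. Nearest to Vegfa were the taurine transporter gene Slc6a6 (0.0502), the clock repressor gene Nr1d1 (0.0572), Evl (0.0681), Msi1 (0.0737) and 2900056M20Rik (0.086). The nearest endothelial gene to Vegfa was Flt1 (0.39). With 4 libraries such distances describe these libraries only.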

How the data were processed

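RNA was measured in 4 pooled islet libraries, 1 per group. Per the submitters' processing notes, bcl2fastq 1.8.4 and TopHat2 2.0.4 were used, with build mm9. The values deposited by the authors are FPKM with bounds and a status, per the file headers. The program that made them is not given in the sources used here. Rows sharing a symbol were summed, and a value was kept only with status OK. The implied fragments are the squared ratio of FPKM to its standard error, which was taken as the upper bound minus FPKM, divided by 2. Among genes with under 100 implied fragments, 73.9% to 74.6% lay within 0.05 of a whole number. Deposited starts were raised by 1, because 560 of 571 matched microRNA rows had a RefSeq length equal to end minus start.

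Differences were taken on log2(FPKM + 1), so they understate changes of low genes. limma 3.58.1 in R 4.3.3 fitted genotype and feeding state additively, with a mean-variance trend. This leaves 1 residual degree of freedom, beside a prior worth 7.58, so p-values draw mainly on other genes and measure only the spread between these pools, which may be technical, and the interaction counts as error. The model was tested on simulated data. Pairs of libraries were compared without a test. The genes named are the 10 members, list members that passed, the most abundant or most changed of each of 14 fixed lists (150 genes, 89 tested), and the genes nearest in profile. Genes outside this rule were named after their values were seen. The members and lists were chosen with earlier results of these data known.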

Additional observations from a re-analysis of the deposited data

Results flagged for a closer look

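The genotype differences of Flt1 and Tie1 had opposite signs in the 2 feeding states, each state having 1 library per genotype. The log2 difference, KR minus WT, of Flt1 was -0.29 in fasted and 0.04 in refed islets, a gap of 0.34. For Tie1 it was -0.45 and 0.02, a gap of 0.47. The gap itself was not tested, since no group has a replicate. The refed differences of both genes lay within counting error, so opposite directions are not shown.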

How the results depend on the processing

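With no filter on low values limma called 0 genes in either comparison, so 0 of the 10 members and 0 of the list genes passed. At an unadjusted p under 0.05 there were 6207 of 23046 genes for feeding and 1918 for genotype, 5 and 0 of them members and 34 and 22 list genes. With a minimum mean FPKM of 5, 2 members were tested for feeding, Vegfa and Esam, and 2 passed. Between genotypes limma called 151 of all genes, 252 with that minimum, 228 with a robust prior, 5 without trend and 749 with limma-voom, which alone called members, 5 of them. Of the list genes 11 passed between genotypes, against 1 without trend and 30 with limma-voom, the latter and no filter being added for the lists after seeing the data. On the log2(FPKM + 1) scale the number of members at least 1.5-fold apart in the fasted genotype pair was 1, but 4 with a pseudocount of 0.1 and 0 after rescaling by the median of ratios. In the feeding pair of KR it was 3, but 5 with that pseudocount. At least 2-fold apart on the log2(FPKM + 1) scale were 0, 2 and 0 in the fasted genotype pair and in the feeding pairs of WT and KR. No direction of a tested member reversed under any alternative. The cause of these changes was not tested. No paired analysis was possible because each group has 1 library. Depth limits the refed KR values most, where Tek rests on 7 fragments.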
